A study of Mus musculus with 8 samples.

Results

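NKp46 (*Ncr1*) and the IgG receptor CD16 (*Fcgr3*) are activating receptors of natural killer (NK) cells. A further 8 genes encode what carries the signal of these and other activating receptors. They are the adaptor chains *Fcer1g*, *Cd247*, *Tyrobp* and *Hcst*, the kinases *Syk* and *Zap70*, and the scaffolds *Lat* and *Lat2*. Of the adaptors, *Tyrobp* and *Hcst* are given below as partners of other receptors than NKp46 and CD16. These 10 genes were chosen by name, as the receptors, adaptors, kinases and scaffolds of this chain, out of 54838 gene identifiers in each deposited file. All 10 passed the filter on low counts and were among the 13903 genes tested.

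NKp46 and CD16 have short cytoplasmic tails and signal through partner chains held in the membrane. These chains carry immunoreceptor tyrosine-based activation motifs (ITAMs), stretches with a pair of spaced tyrosines that Src family kinases phosphorylate. SYK and ZAP70 dock on the phosphorylated pair and in turn phosphorylate the scaffolds LAT and LAT2, which gather phospholipase C gamma and other enzymes. In NK cells this chain leads to calcium entry, degranulation and cytokine release, and through CD16 to killing of antibody-coated cells.

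The coding bases of the motifs are shown because they separate the adaptors by type. They were read from GENCODE M21 transcripts (GRCm38) and found as a tyrosine codon followed after 2 codons by a leucine or isoleucine codon, repeated after a gap of 6 to 8 codons. *Fcer1g* (the FcR gamma chain) and *Tyrobp* (DAP12) each held 1 such motif, and *Cd247* (CD3 zeta) held 3. *Hcst* (DAP10) held no such pair but a single tyrosine codon followed after 2 codons by methionine, the form that binds PI3-kinase. Capitals mark the tyrosine codons and the leucine, isoleucine or methionine codons, 5′ to 3′ on the coding strand.
Fcer1g: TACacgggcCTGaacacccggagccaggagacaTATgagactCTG
Tyrobp: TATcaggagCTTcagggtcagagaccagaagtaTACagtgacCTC
Cd247 motif 1: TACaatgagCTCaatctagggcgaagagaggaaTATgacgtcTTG
Cd247 motif 2: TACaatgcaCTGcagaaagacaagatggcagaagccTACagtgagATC
Cd247 motif 3: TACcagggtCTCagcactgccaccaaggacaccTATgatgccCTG
Hcst: TACatcaacATG
Each of the 5 paired motifs was split between 2 coding exons, so its genomic range holds an intron. The *Fcer1g* motif spans chr1:171229889-171230072 on the minus strand (exons 4 and 5 of 5) and the *Tyrobp* motif chr7:30415670-30417382 on the plus strand (exons 4 and 5 of 5). The *Cd247* motifs span chr1:165856451-165857454, chr1:165858473-165859260 and chr1:165859819-165861042 on the plus strand, in exons 3 and 4, 5 and 6, and 7 and 8 of 8. The *Hcst* motif lies within exon 4 of 4, at chr7:30417821-30417832 on the minus strand. The gap between the 2 tyrosine boxes was 7 codons in every motif except the second of *Cd247*, where it was 8.

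RNA was sequenced from NK cells sorted from mouse spleen as CD45+/CD49b+/CD3- and kept for 12 to 16 h in medium supplemented with cytokines. The 8 libraries form 2 groups of 4: hNK, from healthy WT FVB/n animals, and teNK, from animals of the MMTV-PyMT model. MMTV-PyMT animals carry the polyoma middle T oncogene under the mammary tumour virus promoter, and the series describes them as bearing tumours. The sources used here do not give their strain, any ages, the cytokines or how many animals went into a library. Each replicate was isolated and cultured on its own, but whether replicates were different animals is not stated, so the p-values measure the spread between these libraries. In bulk RNA, fewer cells of a type and less RNA per cell cannot be told apart.

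The teNK libraries held 13111043 to 16209895 reads on genes and hNK replicates 1 and 2 held 11395122 and 12419324, while hNK replicates 3 and 4 were shallower, with 5800098 and 5202131. Runs of the same library on separate lanes are recorded for teNK only, so lane layout cannot be told apart from group. The NK label was checked on 10 further marker genes, read in CPM, reads relative to the scaled library size. Among them *Itga2*, named after its values were seen, encodes CD49b, on which the cells were sorted, so it cannot check the label. The sum of all 10 markers was 5199 to 6009 CPM in the hNK libraries and 8904 to 9466 CPM in the teNK libraries. Of these 10 NK markers, 9 rose and 1 fell, and the median of their log2 fold changes was 0.76. The one that fell, *Eomes* (a transcription factor of NK cells, named after its values were seen), went from 786 to 639 CPM. The highest was *Il2rb* (an IL-15 receptor chain), at means of 1702 and 1943 CPM. Its rise passed in 7 of 17 alternative settings. With no scaling beyond the library total its log2 fold change was 0.06 (edgeR adjusted p = 0.452). Of the 13903 genes tested, 3665 were higher and 3557 lower in teNK at an adjusted p under 0.05 (edgeR quasi-likelihood test), so 26.4% were called higher, 25.6% lower and 51.9% in either direction.

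The question was how this receptor chain differed in NK cells of tumour-bearing and healthy mice. The *Ncr1* message was 4.83-fold higher in teNK, whereas *Fcgr3* did not pass the test. Among the adaptors, *Tyrobp* rose 2.39-fold, *Cd247* 1.71-fold and *Hcst* 1.69-fold, and *Fcer1g*, the chain shared by both receptors, did not pass. *Zap70* rose 2.103-fold, *Syk* 1.97-fold and *Lat* 1.95-fold, and *Lat2* rose 1.12-fold. In all, 8 of the 10 genes were called higher and 0 lower, where 26.4% of all tested genes were called higher, and 31.3% of the 7485 whose log2 CPM averaged 4 or more. Against a change of 1.5-fold, 7 of the 10 passed, beside 9.33% of all genes, and 3 (*Ncr1*, *Tyrobp* and *Zap70*) were called with at least a 2-fold rise, beside 8.28%. For 8 of the 10, all teNK libraries lay above all hNK libraries, as for 24.1% of all genes, and for 0 of the 10 below, as for 22.4%. The median log2 fold change of the 10 was 0.87, against -0.02 for all genes tested.

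**Figure D1:**
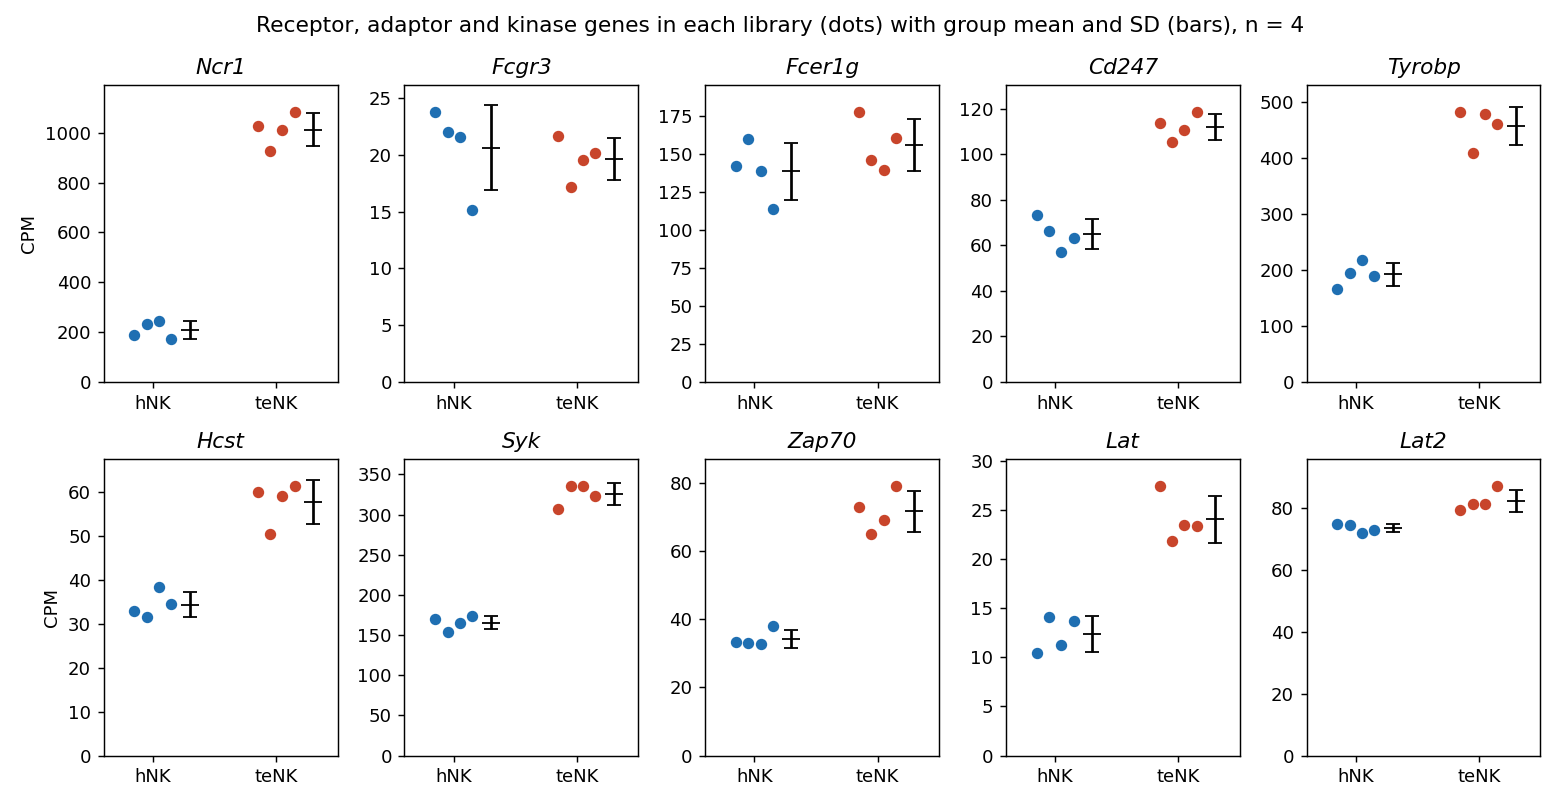
Expression of the 10 genes in CPM (vertical axes from 0, one scale per gene), with a dot for each hNK and teNK library and bars for the mean and SD of 4. The teNK dots lie above all hNK dots for every gene except *Fcgr3* and *Fcer1g*.

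*Ncr1* (ENSMUSG00000062524, chromosome 7, 4337724 to 4345164, plus strand) encodes NKp46, a receptor largely restricted to NK cells and related innate lymphocytes. It measured 187, 233, 246 and 171 CPM in hNK replicates 1 to 4 and 1028, 927, 1012 and 1084 CPM in teNK replicates 1 to 4. The lowest teNK library stood far above the highest hNK library. The log2 fold change was 2.27 ± 0.10 (SE) with a 95% interval of 2.06 to 2.49 (edgeR adjusted p = 1.94e-11), and 327 of the 13903 genes had a larger one. The SD was 35.9 CPM in hNK and 65.0 CPM in teNK, so the group means of 209 and 1013 CPM differed by many times the spread.

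*Fcgr3* (ENSMUSG00000059498, chromosome 1, 171051174 to 171064935, minus strand) encodes CD16, the low-affinity receptor that lets NK cells recognise bound IgG. Its values were 23.8, 22.0, 21.6 and 15.2 CPM in hNK and 21.7, 17.1, 19.5 and 20.2 CPM in teNK. The groups overlapped, and the lowest value, in hNK replicate 4, rested on 84 reads. The log2 fold change of -0.10 ± 0.12 did not pass (edgeR adjusted p = 0.516). Its 95% interval, 0.783-fold to 1.11-fold, holds no change of the size seen for *Ncr1*. *Fcgr3* and its neighbour *Fcgr2b* are similar in sequence, so reads may have been split or lost between them.

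The 2 receptor messages stood in different proportion within the libraries of each group. Per kb of exon, *Ncr1* was 8.86, 12.0, 12.8 and 12.7 times *Fcgr3* in hNK and 53.5, 60.9, 58.4 and 60.6 times in teNK. Against *Fcer1g*, *Ncr1* was 0.746 to 1.003 times as abundant in hNK and 3.28 to 4.11 times in teNK. *Fcgr3* against *Fcer1g* gave 0.0670 to 0.0841 in hNK and 0.0591 to 0.0703 in teNK, ranges that overlapped. These 3 ratios were formed after the values were seen and were not tested.

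The *Ncr1* promoter is shown because this gene had the largest change of the 10. RefSeq windows (GRCm38.p6) matched 8 of the 10 genes, and the 250 bases before the most upstream start were searched on both strands for TGTGGT (the core bound by RUNX factors), GGTGTG (a T-box site) and AGGAAG (an ETS core). The RUNX and T-box letters can overlap, since both hold TGTG and GGT, but no matches found in these windows did. Capitals mark the RUNX matches in the window chr7:4337465-4337714 on the plus strand.
Ncr1: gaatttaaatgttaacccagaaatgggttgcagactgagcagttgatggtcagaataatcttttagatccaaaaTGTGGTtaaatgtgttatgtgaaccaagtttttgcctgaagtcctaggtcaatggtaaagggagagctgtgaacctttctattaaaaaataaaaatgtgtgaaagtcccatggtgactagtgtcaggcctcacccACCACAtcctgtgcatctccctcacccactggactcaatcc
The RUNX letters began 176 bases before the start on the plus strand and 41 bases before it on the opposite strand. The RUNX letters were in 14.0% of 32851 windows of this length, the T-box letters in 16.3% and the ETS letters in 29.5%. *Tyrobp* and *Lat2* had no window and were not searched. Among the 8 windows searched, that of *Ncr1* alone held the RUNX letters and that of *Hcst* alone the T-box letters. The windows of *Fcgr3*, *Fcer1g*, *Cd247*, *Hcst*, *Zap70* and *Lat* held the ETS letters. A match describes the letters and not a bound site.

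*Fcer1g* (ENSMUSG00000058715, chromosome 1, 171229572 to 171234365, minus strand), the FcR gamma chain, lies 165 kb from *Fcgr3* and couples both NKp46 and CD16 to the kinases. It measured 142, 160.0, 139 and 114 CPM in hNK and 178, 146, 140 and 161 CPM in teNK. The 2 groups overlapped. The log2 fold change was 0.16 ± 0.09 with a 95% interval of -0.03 to 0.36 (edgeR adjusted p = 0.157). Without hNK replicate 2, the highest of its group, it was 0.24 and passed (edgeR adjusted p = 0.0458). Over all 17 alternatives the adjusted p ran from 0.0458 to 1.0.

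*Cd247* (ENSMUSG00000005763, chromosome 1, 165788681 to 165877277, plus strand) encodes CD3 zeta, the other partner of NKp46 and the chain with the most ITAMs. Its 4 hNK values were 73.2, 66.1, 57.1 and 63.4 CPM, and its 4 teNK values were 114, 105, 111 and 119 CPM. All teNK libraries were higher. It rose by a log2 fold change of 0.78 ± 0.07 (edgeR adjusted p = 2.10e-07). Exons of *Pou2f1*, a gene on the opposite strand, cover 56.4% of its annotated exon bases, and the strand setting of the counting is not given. *Pou2f1* itself, named after its values were seen, fell from 102 ± 5.48 to 75.3 ± 6.71 CPM (SD, n = 4).

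*Tyrobp* (ENSMUSG00000030579, chromosome 7, 30413760 to 30417585, plus strand) encodes DAP12, the ITAM chain of activating Ly49 receptors and of NKG2C. It measured 166, 195, 218 and 190 CPM in hNK and 482, 409, 479 and 461 CPM in teNK. No libraries overlapped, and the log2 fold change of 1.26 ± 0.08 (edgeR adjusted p = 1.70e-09) was the largest of the 4 adaptors. *Hcst* (ENSMUSG00000064109, chromosome 7, 30417712 to 30419854, minus strand) encodes DAP10, the partner of NKG2D, and ends 126 bases beyond the end of *Tyrobp*, with the 2 genes facing each other. It measured 32.9, 31.6, 38.3 and 34.5 CPM in hNK and 59.8, 50.4, 59.1 and 61.4 CPM in teNK. Its groups did not overlap either, and it rose by 0.76 ± 0.08 (edgeR adjusted p = 1.09e-06).

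*Syk* (ENSMUSG00000021457, chromosome 13, 52583173 to 52648792, plus strand) and *Zap70* (ENSMUSG00000026117, chromosome 1, 36761798 to 36782818, plus strand) are the kinases that dock on ITAMs, and NK cells hold both. *Syk* measured 170, 154, 165 and 173 CPM in hNK and 307, 336, 335 and 323 CPM in teNK. *Zap70* measured 33.2, 32.9, 32.7 and 38.1 CPM in hNK and 73.0, 65.0, 69.2 and 79.1 CPM in teNK. For both genes every teNK library was above every hNK library. The log2 fold changes were 0.97 ± 0.06 for *Syk* (edgeR adjusted p = 1.35e-09) and 1.07 ± 0.08 for *Zap70* (edgeR adjusted p = 9.40e-09). *Syk* varied little within groups, with coefficients of variation of 5.03% in hNK and 4.23% in teNK.

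*Lat* (ENSMUSG00000030742, chromosome 7, 126363824 to 126369570, minus strand) encodes the membrane scaffold that T cells and NK cells share, and *Lat2* (ENSMUSG00000040751, chromosome 5, 134600022 to 134615025, minus strand) a related scaffold known from B cells, mast cells and NK cells. *Lat* measured 10.4, 14.1, 11.2 and 13.7 CPM in hNK and 27.4, 21.8, 23.5 and 23.4 CPM in teNK, and rose by 0.96 ± 0.12 (edgeR adjusted p = 3.73e-06). The hNK values of *Lat* rest on as few as 68 reads. *Lat2* measured 74.6, 74.4, 71.9 and 72.8 CPM in hNK and 79.0, 81.2, 81.1 and 87.1 CPM in teNK. Its groups did not overlap, but the log2 fold change was 0.16 ± 0.06 (edgeR adjusted p = 0.0335). *Lat2* passed in 6 of 17 alternatives, and with no scaling beyond the library total its log2 fold change was 0.03 (edgeR adjusted p = 0.689). *Rfc2* on the opposite strand, named after its values were seen, overlaps 36.3% of the *Lat2* exon bases. The log2 fold change of *Rfc2* was 0.13 ± 0.08, which did not pass (edgeR adjusted p = 0.163) except without hNK replicate 1 (0.20, edgeR adjusted p = 0.0262).

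**Figure D2:**
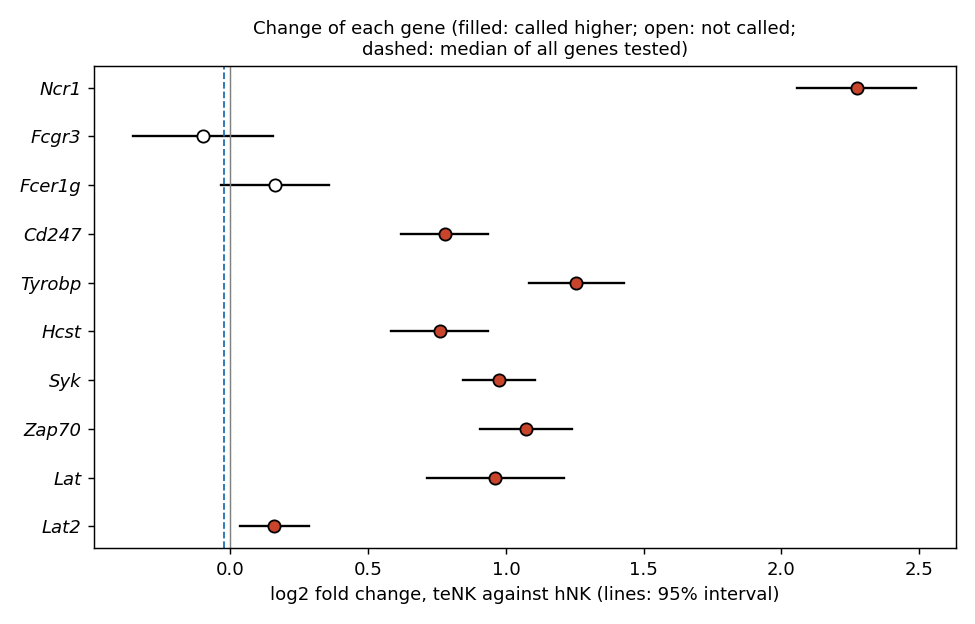
The log2 fold change of teNK against hNK (horizontal axis) for each of the 10 genes, with 95% intervals. Filled points were called higher, and the intervals of *Fcgr3* and *Fcer1g*, drawn open, hold 0.

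Related genes were compared within each library as the log2 ratio of their reads per kb of exon, with 0.5 added to each count, so that no scaling between libraries enters. Of 4 ratios tested by an exact two-sided permutation test of 4 against 4 libraries, 3 differed between the groups without overlap. Each of these 3 reached the smallest p that the design allows, an exact p of 0.0286, or 0.0381 when adjusted over the 4 ratios. Because 46.5% of all tested genes did not overlap between the groups in CPM, an absence of overlap is common in these data.

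*Fcer1g* was 11.9, 14.7, 14.9 and 10.95 times *Cd247* in hNK and 9.53, 8.46, 7.70 and 8.25 times in teNK. The balance of the 2 chains that serve NKp46 thus moved toward *Cd247*, by 0.62 on the log2 scale. The ratio itself depends on the exon length used: over exon bases that no other gene shares, its mean log2 value was 2.37 in hNK and 1.75 in teNK, against 3.699 and 3.081 over all exon bases, with the same difference between groups. *Tyrobp* was 5.46, 6.67, 6.14 and 5.94 times *Hcst* in hNK and 8.72, 8.78, 8.77 and 8.13 times in teNK. This ratio moved toward the ITAM chain, by 0.51 on the log2 scale. With the longest transcript as the length, the mean log2 ratio of *Tyrobp* to *Hcst* was 2.05 in hNK and 2.56 in teNK. Over all exon bases it was 2.59 and 3.10. *Lat2* was 7.55, 5.55, 6.73 and 5.57 times *Lat* in hNK and 3.04, 3.92, 3.65 and 3.93 times in teNK, a shift of 0.80 on the log2 scale toward *Lat*. Over unshared exon bases the mean log2 ratio of *Lat2* to *Lat* was 3.265 in hNK and 2.465 in teNK, against 2.65 and 1.85 over all exon bases.

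The ratio of the 2 kinases was the one that did not pass. *Syk* was 1.63, 1.498, 1.61 and 1.45 times *Zap70* in hNK and 1.34, 1.65, 1.55 and 1.304 times in teNK. With the longest transcript as the length, the mean log2 ratio was 1.02 in hNK and 0.93 in teNK. Over all exon bases it was 0.63 and 0.54. The groups overlapped, and the difference of -0.09 on the log2 scale did not pass (exact permutation p = 0.371, the same when adjusted). An interval of -0.32 to 0.19 holds the shifts that this test would not reject at its level of 97.1%.

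**Figure D3:**
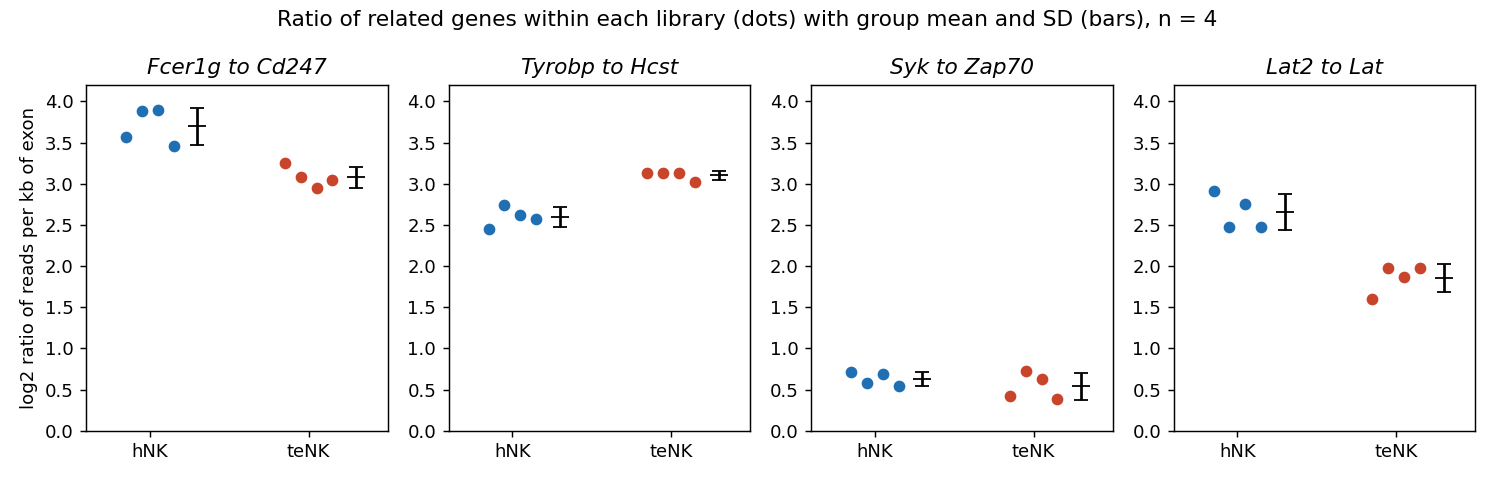
The log2 ratio of reads per kb of exon between 2 related genes (vertical axis) in each of 4 hNK and 4 teNK libraries, with bars for the mean and SD. The groups separate for *Fcer1g* to *Cd247*, *Tyrobp* to *Hcst* and *Lat2* to *Lat*, and overlap for *Syk* to *Zap70*.

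Per kb of exon, levels of different genes can be set side by side. In hNK the order of mean levels was *Tyrobp* (288 CPM per kb), *Fcer1g* (159), *Ncr1* (136), *Hcst* (47.5), *Lat2* (28.01), *Syk* (17.7), *Cd247* (12.2), *Fcgr3* (11.9), *Zap70* (11.4) and *Lat* (4.47). The ranges over libraries overlapped between *Fcer1g* and *Ncr1*, and between neighbours from *Cd247* to *Zap70*. In teNK the order was *Tyrobp* (687 CPM per kb), *Ncr1* (658), *Fcer1g* (179), *Hcst* (79.9), *Syk* (34.7), *Lat2* (31.3), *Zap70* (23.9), *Cd247* (21.1), *Fcgr3* (11.3) and *Lat* (8.69). There the ranges overlapped between *Tyrobp* and *Ncr1*, *Syk* and *Lat2*, *Zap70* and *Cd247*, and *Fcgr3* and *Lat*. *Ncr1* moved from the third place to the second, and *Fcgr3* stayed near the bottom. Other places and overlaps depend on the length used. Over exon bases that no other gene shares, *Cd247* stood above *Syk* in both groups, at 30.7 against 17.7 CPM per kb in hNK and 53.0 against 34.7 in teNK. With the longest transcript as the length, *Fcer1g* and *Ncr1* did not overlap in hNK, and *Cd247* stood above *Zap70* in teNK.

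Of the summed level of the 4 adaptors per kb, *Fcer1g* made up 34.5%, 34.5%, 29.0% and 27.5% in hNK and 19.8%, 19.2%, 16.3% and 18.7% in teNK. *Tyrobp* made up 56.8% ± 3.43 in hNK and 71.1% ± 1.45 in teNK (SD, n = 4). *Cd247* and *Hcst* together held the small rest in both groups. The level of *Cd247* depends on the length used, because most of its annotated exon bases overlap *Pou2f1*. Per kb of the exon bases shared with no other gene, its level was 30.7 CPM per kb in hNK and 53.0 in teNK.

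Across the 8 libraries, genes with the pattern nearest to *Ncr1* were found by the root mean square distance between log2 CPM values centred on each gene's mean, among 10621 genes whose log2 CPM averaged 2 or more. The nearest were *Prf1* (perforin) at a distance of 0.0907, *Itgb2* (the beta-2 integrin chain) at 0.114, *Sgk1* (a serum-induced kinase) at 0.118, *Sla* (an adaptor that dampens receptor signalling) at 0.121 and *Cd300lf* at 0.129. They rose 4.54-fold to 5.17-fold. For *Fcgr3* the nearest were *Cd151* at 0.0671, *Gpatch3*, *Haus8*, *Btbd2* and *Sun2*, of which none passed the test. With 8 libraries in 2 groups, the distance reflects the group difference together with the spread within groups.

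Other receptors that use these adaptors were read beside them. Of 7, 6 rose and 1 did not pass, with a median log2 fold change of 0.94, where 26.4% of all tested genes were called higher. *Klra8* (Ly49H) rose 3.56-fold and *Klra4* (Ly49D) 3.10-fold, both partners of DAP12, while *Klrc2* (NKG2C), which also uses DAP12, stood at 170 ± 29.1 and 162 ± 5.80 CPM in the 2 groups (SD, n = 4; edgeR adjusted p = 0.575). Without hNK replicate 1 *Klrc2* was called lower, at -0.19 (edgeR adjusted p = 0.0114). *Klrk1* (NKG2D), the partner of DAP10, rose 1.92-fold, beside 1.69-fold for *Hcst*. *Klrb1f* rose 2.61-fold, *Klrb1a* 1.78-fold and *Klrb1c* (NK1.1) 1.33-fold, receptors of the NKR-P1 family that pair with the FcR gamma chain. Ly49 and NKR-P1 genes have near copies and vary between strains, so reads may be misassigned between members and between groups.

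Upstream of the motifs, 8 of 10 tested Src family kinases and regulators rose and 1 fell, beside 26.4% higher and 25.6% lower over all genes. The median over the 10 was 0.61 (log2 fold change). *Lck*, the kinase that phosphorylates ITAMs in T cells and NK cells, was named after its values were seen and rose from 229 ± 32.3 to 479 ± 32.4 CPM (SD, n = 4). *Fgr* rose 4.40-fold to 15.8 CPM, and *Yes1* fell from 9.16 ± 1.76 to 5.12 ± 1.02 CPM. *Blk*, a kinase of B cells and among the 8 that rose, had 5 reads over the hNK libraries, every one in replicate 3. Over the teNK libraries it had 85. It passed the filter on low counts through its teNK libraries, so a rise was the likely call. The ratio of pooled reads per library size was 10.9 (95% exact interval 4.49 to 34.4), and without hNK replicate 3 no hNK read is left, so that its fitted log2 fold change went from 3.33 to 7.23, a value that depends on the prior count.

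Next to the scaffolds, 16 of 23 adaptors and enzymes rose and 1 fell, beside 26.4% higher and 25.6% lower over all genes. Their median was 0.45. *Plcg2*, a phospholipase C gamma, rose 3.13-fold, from 66.2 ± 6.09 to 206 ± 8.35 CPM (SD, n = 4). *Btk* rose from a mean of 0.612 to 2.34 CPM, on 18 reads in all of hNK. It too passed the filter on low counts through its teNK libraries, so a rise was the likely call. The adaptor gene *Skap1* fell from 140 ± 11.8 to 120 ± 3.63 CPM. Without hNK 3 and hNK 4 *Skap1* no longer passed (edgeR adjusted p = 0.0704). *Pik3r1*, the PI3-kinase subunit that binds the DAP10 motif, was named after its values were seen and rose 2.47-fold. *Lcp2* (SLP-76), named in the same way, rose 1.36-fold.

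Further downstream, 16 of 19 genes of the calcium, Ras and NF-kappa-B branches rose and 2 fell, with a median of 0.41. *Itpr1*, a calcium release channel, rose 2.35-fold. *Mapk3* (ERK1) fell from 85.3 ± 8.10 to 60.9 ± 8.22 CPM and *Nfatc2* from 111 ± 12.1 to 92.6 ± 5.06 CPM. Among brakes of the signal, 9 of 15 rose and 0 fell, with a median of 0.34. *Sla* rose 4.99-fold and *Dok2*, which dampens Ras signalling, 2.59-fold. Over all tested genes, 26.4% were called higher and 25.6% lower. Differences between the signalling lists were not tested.

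**Figure D4:**
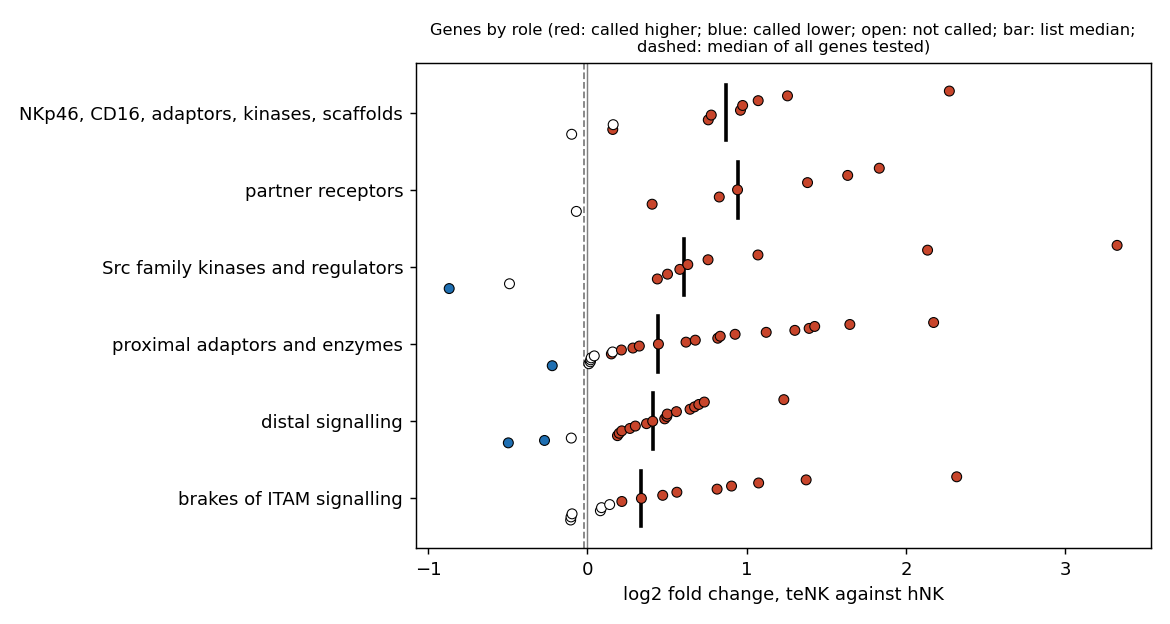
The log2 fold change of teNK against hNK (horizontal axis) for each tested gene, in rows by role, with black bars for list medians. Medians run from 0.34 for the brakes to 0.94 for the partner receptors, and the dashed line marks -0.02, the median of all genes tested.

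Among other Fc receptors, 2 of 6 were tested and both rose. Both were low in hNK and passed the filter on low counts through their teNK libraries. A rise was therefore the likely call, and the count says little beyond that filter. *Fcgr2b*, the inhibitory IgG receptor of B cells and myeloid cells, rose from 1.06 ± 0.518 to 10.9 ± 1.08 CPM (SD, n = 4), while *Fcgr3* beside it did not pass. *Fcer2a*, an IgE receptor of B cells, had 3 reads over the hNK libraries against 88 over the teNK libraries. Relative to library size that is a ratio of 18.8 (95% exact interval 6.23 to 93.0). The hNK reads of *Fcer2a* lay in replicates 3 and 4, and without hNK replicate 3 its fitted log2 fold change went from 4.06 to 5.18. *Fcgr1*, *Fcgr4*, *Fcer1a* and *Fcgrt* had too few reads to be tested.

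Several of these genes are also made by cells that are not NK cells, and markers of such cells moved with the groups. Platelets use the FcR gamma chain with the collagen receptor *Gp6*, and use SYK and LAT. Of 12 platelet and megakaryocyte markers, 10 of 11 tested rose, and the list summed to 98.6 to 138 CPM in hNK and 251 to 401 CPM in teNK. *Gp6*, named after its values were seen, went from 0.308 to 9.34 CPM. *Itgb3*, the highest of the list over all 8 libraries, was 92.0 CPM in hNK and 80.8 CPM in teNK, which did not pass. It was called lower in 5 of 17 alternatives. These were no scaling beyond the library total, no filter, and leaving out hNK replicate 3, hNK replicate 4 or both. The platelet chemokine gene *Ppbp*, also named after its values were seen, was the highest of the list in teNK and rose from 18.3 to 106 CPM. B cells hold SYK and LAT2. All 10 B cell markers were tested, 9 rose, and the list summed to 87.9 to 129 CPM in hNK and 134 to 164 CPM in teNK, most of it *Ighm* at 95.8 and 96.5 CPM. Over all tested genes, 26.4% were called higher. Most tested platelet and B cell markers were low in hNK and passed the filter on low counts through their teNK libraries. For such markers a rise was the likely call.

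Of 13 myeloid markers, 3 were tested and 2 rose, where 26.4% of all tested genes were called higher. Among those that rose was *Lyz2*, named after its values were seen, at means of 0.46 CPM in hNK and 6.95 CPM in teNK. It passed the filter on low counts through its teNK libraries, so a rise was the likely call. The list summed to 10.4 to 15.7 CPM in hNK and 70.2 to 95.3 CPM in teNK. Most of that was *Itgax* (CD11c), which NK cells can also express, at a mean of 7.61 CPM in hNK and at 59.9 to 80.8 CPM in teNK, while *C1qa*, *C1qb* and *Xcr1* had no read in hNK. Basophils carry CD49b and could pass the sort, and their 10 markers summed to 0.249 to 1.27 CPM in hNK and 3.13 to 5.04 CPM in teNK. The highest of these was *Gata2*, with 2 reads in hNK and 124 in teNK, and it alone had enough reads to be tested. *Mcpt4* had no read in any library. *Mcpt8*, named after its values were seen, went the other way, from a mean of 0.267 to 0.161 CPM. The rest had higher means in teNK than in hNK, of 0.741 CPM (*Hdc*, named in the same way) or less. The neutrophil list reached 0.165 CPM at most in hNK and 7.37 CPM in teNK, with *S100a9* the highest and *Ly6g*, *Retnlg* and *Camp* at 0 in all libraries. The erythroid list reached 0.542 and 11.1 CPM, led by *Slc4a1* with 1 read in hNK and 113 in teNK, and *Hba-a2* was at 0.

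T cells hold CD3 zeta, ZAP70 and LAT. Of 10 T cell markers 6 were tested, 1 rose and 1 fell, beside 26.4% higher and 25.6% lower over all tested genes. The list summed to 271 to 312 CPM in hNK and 259 to 275 CPM in teNK. Most of it was *Trbc1* (a T cell receptor constant region also transcribed in NK cells), at 236 and 217 CPM. *Cd3e*, which defines T cells and was named after its values were seen, was at 2.18 ± 1.46 CPM in hNK and 1.43 ± 0.540 CPM in teNK. The marker that rose was *Cd3d*, from 2.25 to 4.91 CPM, and the one that fell *Trbc2*, from 27.9 to 15.6 CPM, both named after their values were seen. The part of T cells, platelets, B cells and the other cells in the values of the 10 genes was not tested.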

How the data were processed

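The authors deposited whole-number read counts per Ensembl gene, 1 file per library, with no normalization. Per the submitters' processing notes, the tools were HISAT2 2.1.0, SAMtools and HTSeq and the build GRCm38; the strand setting and annotation release are not given in the sources used here. Summary lines (5 per file) stayed out of library sizes: reads in no gene were 32.3% to 41.2% of reads and ambiguous reads 1.52% to 2.07%. GENCODE M21 gave symbols for 54809 identifiers, and 29 had no match. All coordinates are GRCm38.

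In R 4.3.3 with edgeR 4.0.16, genes passing filterByExpr were fitted on group after TMM scaling, with p from the quasi-likelihood F test adjusted by Benjamini-Hochberg over 13903 genes and called at an adjusted p under 0.05. A gene low in hNK can pass this filter through its teNK libraries alone, and such a gene can hardly be called lower. The SE of a log2 fold change is its size over the square root of F. CPM used TMM factors; means and SDs are over 4 libraries. A floor of 3 counts was 0.238 to 0.542 CPM in hNK and 0.190 to 0.241 CPM in teNK, and intervals of pooled reads cover counting error only. Lengths are unions of annotated exons. Within-group library pairs differed by 3.51 to 11.3 chi-square units per degree of freedom, so none was a duplicate. Alternatives were other scalings and filters, DESeq2 1.42.0, limma 3.58.1 voom, a replicate block, a 1.5-fold test and leaving out libraries.

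The genes and lists were chosen with earlier results of these data known. The text names all 10 genes, every partner receptor, the 2 largest called rises and falls of each signalling list, the highest gene of each marker list and the 5 nearest genes to *Ncr1* and to *Fcgr3*; others are stated as chosen after their values were seen. 1 gene that this rule names is not reported here.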

Additional observations from a re-analysis of the deposited data

Results flagged for a closer look

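In 7 of 116 groups examined, the library at one end of its group of 4 stood apart by more than the 95% limit of Dixon's test, which chance passes in about 1 of 20 groups. *Zap70* measured 38.1 CPM in hNK replicate 4, above the 32.7 to 33.2 CPM of the other hNK libraries. The log2 ratio of *Tyrobp* to *Hcst* was 3.02 in teNK replicate 4, below 3.125 to 3.134 in the others. *Klra8* was at 14.7 CPM in hNK replicate 3 and *Dok2* at 218 CPM in teNK replicate 1, both the highest of their group. *Cd300lf* was at 15.4 CPM in teNK replicate 1, the lowest of its group. *Blk* reached 0.825 CPM in hNK replicate 3 and *Slc4a1* 0.181 CPM in hNK replicate 4, each with no read in the other hNK libraries.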

How the results depend on the processing

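Of the 10 genes, *Ncr1*, *Cd247*, *Tyrobp*, *Hcst*, *Syk*, *Zap70* and *Lat* were called higher in all 17 alternatives, *Fcgr3* in none, *Fcer1g* in 1 and *Lat2* in 6. Tested against a 1.5-fold change, 1297 genes were higher and 850 lower. With no scaling beyond the library total, 34.6% of calls were higher against 50.7% in the analysis reported, and the median log2 fold change of all genes was -0.15 against -0.02.

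Same-numbered libraries did not deviate together (correlations of -0.107 to 0.145), so the numbers were not read as pairs. With a replicate block 3581 genes were higher and 3401 lower, and *Lat2* and *Il2rb* no longer passed. With a replicate block the ratio differences were -0.62 for *Fcer1g* to *Cd247*, 0.51 for *Tyrobp* to *Hcst* and -0.80 for *Lat2* to *Lat*, at an adjusted p of 0.167 where the exact sign-flip test cannot go below 0.125. Leaving out 1 library, they ran from -0.70 to -0.55, from 0.46 to 0.56 and from -0.86 to -0.71, and an exact p under 0.0571 was not possible.

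The reversed values were small and passed neither before nor after. *Klrc2* gave 0.0480 without hNK 3 and hNK 4 together, a setting chosen after seeing the data. *Ighm* gave -0.12 without scaling, -0.0193 with upper quartile scaling and -0.0500 to 0.130 without 1 library. *Haus8* gave 0.00598 without hNK replicate 2. *Btbd2* gave 0.0116 with DESeq2 and -0.0872 to 0.0415 without 1 library. Depth limits *Lat* and *Fcgr3* most, with as few as 68 reads for *Lat* (hNK replicate 3) and 84 for *Fcgr3* (hNK replicate 4).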
